A study of Mus musculus with 12 samples.

Results

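The BCL2 family sets whether a cell commits to the mitochondrial pathway of apoptosis. Transcripts of 10 of its genes were followed here in mouse follicular B cells: *Bcl2*, *Mcl1*, *Bcl2l1*, *Bcl2l11*, *Pmaip1*, *Bbc3*, *Bax*, *Bak1*, *Bid* and *Bmf*. They were chosen by gene symbol from the 13574 genes listed in the 0 h or the 4 h table of raw read counts. All 10 were listed in both tables and passed the filter on low counts in every comparison. After 4 h in culture without added stimulus, *Bcl2* fell and *Bcl2l11* rose in cells of both genotypes. Both changes were larger in WT than in GPR174-deficient (KO) cells, so that at 4 h WT cells held 1.49-fold less *Bcl2* and 1.64-fold more *Bcl2l11* than KO cells.

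The family has guardians, initiators and effectors. BCL2, MCL1 and BCL-xL (from *Bcl2l1*) hold the effectors BAX and BAK in check at the mitochondrial membrane. The BH3-only proteins BIM (*Bcl2l11*), NOXA (*Pmaip1*), PUMA (*Bbc3*), BID and BMF bind the guardians or the effectors, and when they prevail, BAX and BAK form pores that release cytochrome c. In resting B cells BCL2 and MCL1 are known to be needed for survival, and BIM is the main initiator of the death of unneeded lymphocytes.

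The libraries came from splenic B cells of adult male mice that were sorted as CD23+ CD21/35-. WT mice were Gpr174+/Y and KO mice Gpr174-/Y; *Gpr174* is X-linked and encodes a G-protein-coupled receptor. In the KO allele a tdTomato reading frame stands in place of the only coding exon, in every cell of the animal, and the line was made in 129 embryonic stem cells and backcrossed to C57BL/6J. Cells were taken immediately (0 h) or kept for 4 h in complete RPMI medium with 10% serum, and each genotype gave 3 libraries at each time. The design text gives 3 mice per genotype. It does not say whether the 0 h and 4 h cells came from the same mice. The question was how far the receptor shapes gene expression as B cells sit in culture.

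Library totals ran from 6098941 to 11618787 counts, and 6.65% to 11.3% of a library was the ribosomal precursor *Rn45s*. Levels are given as CPM, counts per 1000000 on library sizes scaled by TMM. *Gpr174* itself was 2.02-fold higher in WT at 0 h and 1.47-fold higher at 4 h, with no overlap between the groups at either time; its row sums all exons, including those that the KO allele keeps. Of the B cell markers, *Ms4a1*, *Cd79a*, *Cd79b*, *Pax5*, *Cd22* and *Cd74* were well counted in every library, from at least 1371 reads for *Pax5* to at least 36100 for *Cd74*, while the 8 T cell markers together summed to 6.45 to 18.9 CPM. *Ighm* and *Ighd* are not among the listed symbols. In bulk libraries such as these, fewer cells of a type and less RNA per cell cannot be told apart.

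Levels of different genes were compared per kilobase (kb) of exonic length. *Mcl1* had by far the highest level of the 10, at 405.7 CPM per kb in WT 0 h, where *Bax* came next with 34.1 and *Bcl2* with 30.2. The ranges of *Bax*, *Bcl2* and *Bak1* over libraries overlapped from neighbour to neighbour in both 0 h groups, so their order was not resolved. *Bid*, *Bcl2l11*, *Pmaip1* and *Bmf* followed, with *Bmf* the lowest of them at 5.66 CPM per kb in WT 0 h. *Bcl2l1* and *Bbc3* were near 1 CPM per kb or below at 0 h. After culture the order changed in the middle. In WT 4 h *Bcl2l11* came after *Mcl1* and *Bax*, at 21.4 CPM per kb, and above *Bak1* (17.4) and *Bcl2* (15.5), whose ranges overlapped each other but not that of *Bcl2l11*. In KO 4 h *Bcl2* had that place, at 23.0, and *Bcl2l11* was at 13.1, with *Bak1* (15.8) between them and no overlap between these neighbours. All exons of all annotated transcripts were counted in the length, so the level of a gene with long alternative exons is understated.

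**Figure D1:**
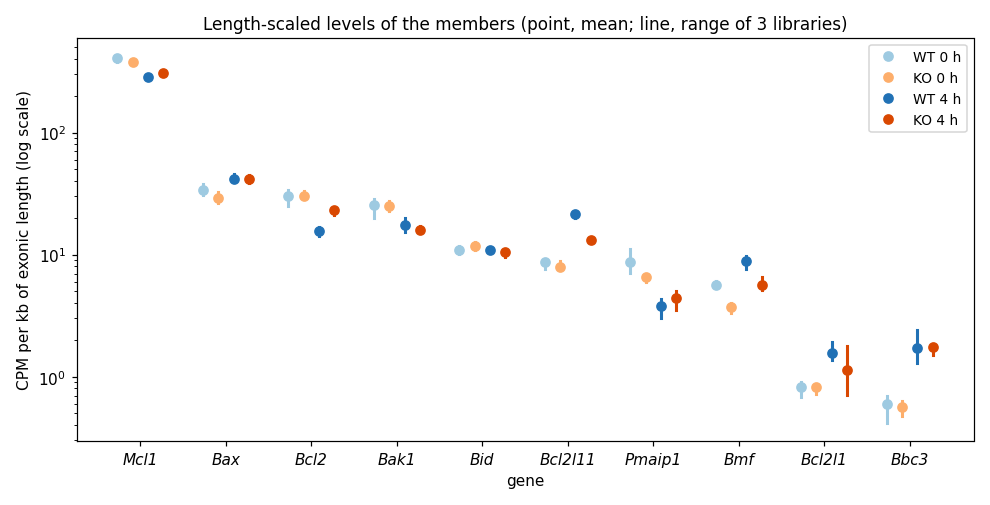
Mean level of each gene in CPM per kb of exonic length (log axis), with genes ordered by their level in WT 0 h; each point is the mean of 3 libraries and each line their range. *Mcl1* lies far above the rest, and *Bcl2* and *Bcl2l11* exchange places between the WT and KO libraries of 4 h.

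Across the 10 genes, the genotypes differed for 1 gene at 0 h and 3 genes at 4 h by edgeR's quasi-likelihood test (Benjamini-Hochberg adjusted p under 0.05 over all genes). At 0 h the gene was *Bmf*, against 0.987% of all 11345 genes tested. That share stood for 112 genes, and the count ran from 26 (without KO 0 h replicate 1) to 161 as single libraries were left out, with 50 without WT replicate 2, 59 without WT replicate 3 and 55 without KO replicate 3. At 4 h *Bcl2l11* and *Bmf* were higher and *Bcl2* was lower in WT, against 10.9% of all 11123 genes tested. Culture moved 9 of the 10 genes in WT (5 up, 4 down) and 8 in KO (4 up, 4 down), where it moved 33.1% and 23.3% of all 11572 genes. The culture change itself differed between the genotypes for *Bcl2* and *Bcl2l11*, with 6.39% of all genes differing in this way. The CPM of WT and KO libraries did not overlap for 2 of the 10 genes at 0 h, against 18.3% of all genes, and for 3 at 4 h, against 27.9%. Libraries of 0 h and 4 h did not overlap for 9 genes in WT, against 40.9% of all genes, and for 9 in KO, against 41.9%. The median absolute log2 change in culture was 0.78 for the 10 genes in WT and 0.54 in KO, beside 0.23 and 0.19 over all genes tested.

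**Figure D2:**
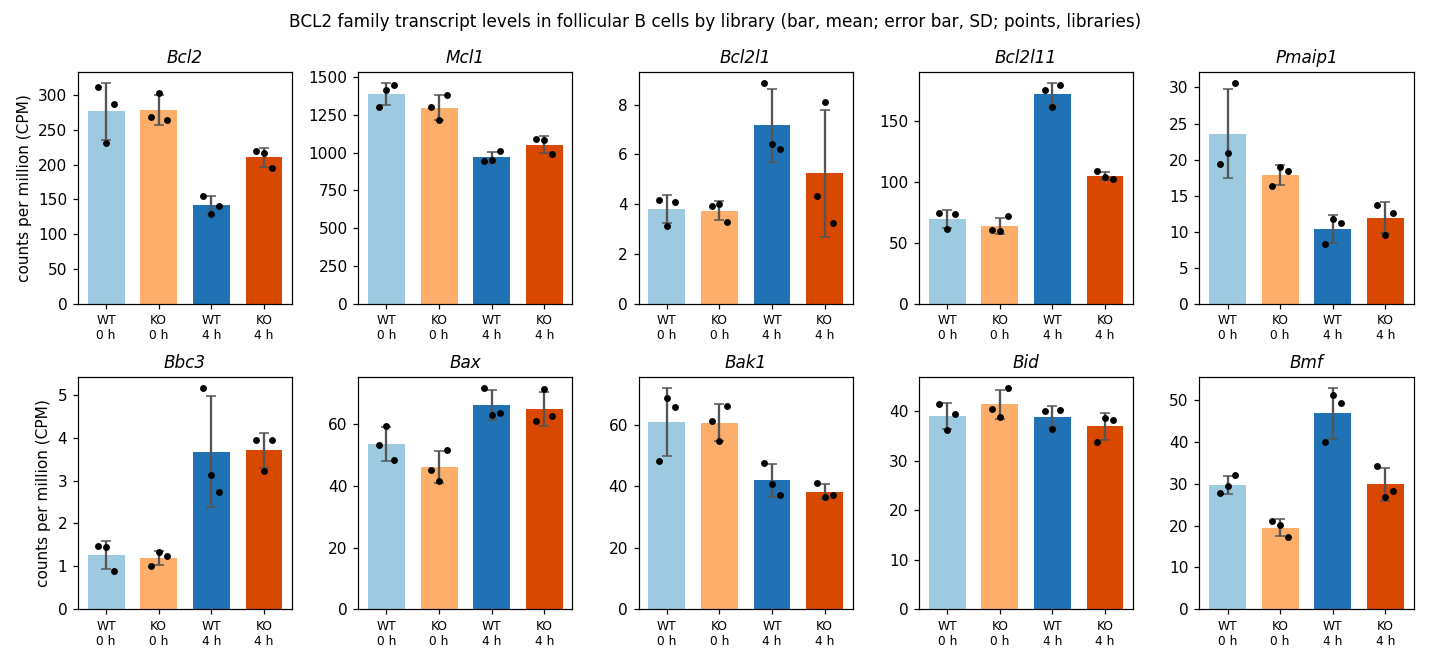
Level of each gene in CPM (linear axes that start at 0, scaled per gene) in WT and KO follicular B cells at 0 h and 4 h; bars are means, error bars SD, and points the 3 libraries of a group. *Bcl2* and *Bcl2l11* separate WT from KO at 4 h only, and *Bmf* separates them at both times.

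The 3 genes that differed between genotypes at 4 h are shown with the 250 bases before their annotated start site, since the comparison turns on these genes. The *Bcl2* gene lies on chromosome 1 from 106538178 to 106714274 on the minus strand, *Bcl2l11* on chromosome 2 from 128126038 to 128162547 on the plus strand, and *Bmf* on chromosome 2 from 118528757 to 118549687 on the minus strand (GRCm38). The sequences are RefSeq's (GRCm38.p6), at chr1:106714291-106714540 for *Bcl2*, chr2:128125788-128126037 for *Bcl2l11* and chr2:118549687-118549936 for *Bmf*. They are written 5′ to 3′ on the gene's strand, with motif matches in capitals. *Bcl2l11* has 1 further and *Bmf* 2 further annotated start sites, which are not shown.
Bcl2: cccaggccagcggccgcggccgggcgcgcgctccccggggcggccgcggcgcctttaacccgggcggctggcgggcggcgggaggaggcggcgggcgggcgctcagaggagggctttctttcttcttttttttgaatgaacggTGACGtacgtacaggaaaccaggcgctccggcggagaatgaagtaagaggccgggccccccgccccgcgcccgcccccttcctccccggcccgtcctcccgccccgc
Bcl2l11: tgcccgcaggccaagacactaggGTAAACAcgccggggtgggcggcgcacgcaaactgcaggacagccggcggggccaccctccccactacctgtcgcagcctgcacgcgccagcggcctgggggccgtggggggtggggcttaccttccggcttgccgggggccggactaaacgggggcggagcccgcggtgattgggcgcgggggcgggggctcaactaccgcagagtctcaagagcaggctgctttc
Bmf: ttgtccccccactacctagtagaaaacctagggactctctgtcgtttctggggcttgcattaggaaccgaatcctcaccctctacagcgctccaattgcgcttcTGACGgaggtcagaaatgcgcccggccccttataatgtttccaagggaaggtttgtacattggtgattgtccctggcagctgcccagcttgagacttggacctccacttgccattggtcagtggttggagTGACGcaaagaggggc

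The motifs searched on both strands were the full cAMP response element (CRE) TGACGTCA, the shorter core TGACG, which every full element also holds, and the FOXO motif GTAAACA. *Bcl2* had 1 short core, whose first base lay 107 bases before the start site, and *Bmf* had 2, at 146 and 16 bases. *Bcl2l11* had 1 FOXO motif, at 227 bases. *Bbc3*, which was not called between genotypes, had 1 short core at 55 bases in 1 window and 1 FOXO motif at 167 bases in another. No other window of a member held a match, including the windows of *Bcl2l11* and *Bmf* that are not shown. Of 32851 RefSeq promoter windows of this length, 17.8% held the short core, 1.55% the full element and 3.17% the FOXO motif. None of the 16 windows of the 9 matched members held the full element; *Pmaip1* had no window.

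*Bcl2* encodes the guardian protein that gave the family its name. Its level in WT 0 h replicates 1 to 3 was 311, 231 and 287 CPM, and in KO 0 h 268, 303 and 264 CPM. The uncultured groups overlapped, and the log2 fold change of WT over KO was -0.02 ± 0.09 (SE; adjusted p = 0.958), with an interval of 2 SE from -0.19 to 0.15. After 4 h the WT libraries held 156, 129 and 140 CPM and the KO libraries 220, 217 and 195 CPM. Every WT library was now below every KO library, with a log2 fold change of -0.57 ± 0.07 (adjusted p = 6.54e-05). In WT the mean fell from 276 ± 41.0 to 142 ± 13.1 CPM (SD, n = 3), a log2 change of -0.96 ± 0.09 (adjusted p = 2.95e-08). In KO it fell from 279 ± 21.6 to 211 ± 13.6 CPM, a log2 change of -0.40 ± 0.09 (adjusted p = 0.00202). The difference between these declines, -0.56 ± 0.13, passed the test (adjusted p = 0.00757). A predicted antisense transcript, *D630008O14Rik*, overlaps 558 of the 9157 exonic bases of *Bcl2* on the opposite strand.

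*Mcl1* encodes the short-lived guardian, and its transcript was the most abundant of the family. It was counted at 1303, 1412 and 1445 CPM in WT 0 h and at 1303, 1213 and 1379 CPM in KO 0 h. After culture it stood at 943, 950 and 1013 CPM in WT and at 1090, 1082 and 988 CPM in KO, so the genotypes overlapped at both times. *Mcl1* fell in both genotypes, with log2 changes of -0.52 ± 0.06 in WT (adjusted p = 4.12e-07) and -0.30 ± 0.06 in KO (adjusted p = 0.000544). The difference between these declines was -0.22 ± 0.08 and was not called (adjusted p = 0.146). At 4 h the WT to KO difference was -0.12 ± 0.06 (adjusted p = 0.247).

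*Bcl2l1* encodes BCL-xL, a guardian better known from activated than from resting B cells. Its transcript was scarce, with 24 to 68 reads per library. The WT libraries rose from 4.17, 3.14 and 4.11 CPM at 0 h to 8.87, 6.41 and 6.22 CPM at 4 h, without overlap. The log2 change was 0.90 ± 0.29 (adjusted p = 0.0198). The call was lost without WT 0 h replicate 2 (0.78, adjusted p = 0.0716) or WT 4 h replicate 1 (0.72, adjusted p = 0.0953). In KO it was 3.92, 4.00 and 3.30 CPM at 0 h and 4.35, 8.13 and 3.26 CPM at 4 h. A single KO 4 h library was thus high while the other 2 stayed within or near the 0 h range, and the change of 0.50 ± 0.30 was not called (adjusted p = 0.259). The genotypes did not differ by the test at either time, and at 4 h the interval of 2 SE around the difference, -0.17 to 1.01, is wide.

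*Bcl2l11* encodes BIM, the BH3-only protein that can bind every guardian. It was counted at 74.1, 61.5 and 73.4 CPM in WT 0 h and at 60.8, 59.6 and 71.8 CPM in KO 0 h. The uncultured genotypes overlapped, with a log2 fold change of 0.12 ± 0.09 (adjusted p = 0.659). After 4 h the WT libraries held 175, 162 and 179 CPM and the KO libraries 109, 104 and 102 CPM. All 6 cultured libraries lay above all uncultured ones, and the WT libraries lay above the KO libraries. In WT the rise was 1.30 ± 0.08 (2.47-fold; adjusted p = 3.22e-11) and in KO 0.71 ± 0.08 (1.64-fold; adjusted p = 1.49e-06). The difference between these rises was 0.59 ± 0.12 (adjusted p = 0.00197), and the WT to KO difference at 4 h was 0.71 ± 0.06 (adjusted p = 1.54e-06). No other annotated gene overlaps its exons.

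*Bmf* encodes another BH3-only protein, one that is held on the cytoskeleton by dynein light chain 2 in unstressed cells. It was counted at 27.8, 29.4 and 32.1 CPM in WT 0 h and at 21.1, 20.1 and 17.3 CPM in KO 0 h. All WT libraries were above all KO libraries already before culture, by 0.60 ± 0.12 on the log2 scale (1.52-fold; adjusted p = 0.0287). After culture *Bmf* stood at 40.0, 51.3 and 49.4 CPM in WT and at 34.4, 26.9 and 28.3 CPM in KO, again without overlap, and the difference was 0.66 ± 0.12 (1.58-fold; adjusted p = 0.00144). It rose in culture by 0.66 ± 0.12 in WT (adjusted p = 0.000129) and by 0.61 ± 0.13 in KO (adjusted p = 0.00122). The difference between these rises was 0.05 ± 0.17 (adjusted p = 0.930), with an interval of 2 SE from -0.30 to 0.39. The 0 h call was lost when WT replicate 2 or 3 or any KO replicate of 0 h was left out, with log2 fold changes of 0.52 to 0.66 and adjusted p of 0.057 to 0.13. The call at 4 h did not depend on a single library.

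*Pmaip1* encodes NOXA, which binds MCL1 and speeds its destruction. Its level in WT 0 h was 19.4, 20.8 and 30.6 CPM and in KO 0 h 16.3, 19.0 and 18.4 CPM. These ranges did not overlap, but WT replicate 3 stood far above the other 2, and the log2 difference of 0.40 ± 0.17 was not called (adjusted p = 0.315). After 4 h *Pmaip1* was at 8.23, 11.7 and 11.2 CPM in WT and at 13.7, 9.56 and 12.6 CPM in KO, with overlap. It fell in both genotypes, with log2 changes of -1.18 ± 0.18 in WT (2.27-fold; adjusted p = 3.14e-05) and -0.58 ± 0.19 in KO (adjusted p = 0.0278). The KO call was lost without KO 0 h replicate 2 or 3 or KO 4 h replicate 2 or 3 (adjusted p of 0.0517 to 0.148), and when libraries were scaled by their totals (-0.49, adjusted p = 0.0617). The difference between genotypes in this decline, -0.60 ± 0.26, was not called (adjusted p = 0.230).

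*Bbc3* encodes PUMA, a BH3-only protein transcribed under p53 and FOXO factors. It had the lowest CPM of the 10 genes, with 8 to 32 reads per library. The WT libraries went from 1.46, 1.46 and 0.893 CPM to 5.16, 3.13 and 2.74 CPM, and the KO libraries from 1.01, 1.33 and 1.24 CPM to 3.95, 3.23 and 3.94 CPM. All cultured libraries exceeded all uncultured ones. The rise was 1.52 ± 0.35 in WT (2.86-fold; adjusted p = 0.00212) and 1.63 ± 0.37 in KO (3.09-fold; adjusted p = 0.00249). The genotypes overlapped at both times, and at 4 h the difference of -0.04 ± 0.30 leaves an interval of 2 SE from -0.64 to 0.56. At this depth a modest genotype difference in *Bbc3* was not detectable.

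BAX and BAK are the effectors that open the outer mitochondrial membrane. In culture *Bax* rose and *Bak1* fell, in WT and in KO. *Bax* was counted at 53.3, 59.4 and 48.4 CPM in WT 0 h and at 45.1, 41.6 and 51.7 CPM in KO 0 h, and at 71.8, 63.2 and 63.8 CPM in WT 4 h and 61.0, 71.5 and 62.8 CPM in KO 4 h. All cultured libraries of a genotype exceeded its uncultured ones, and the genotypes overlapped at both times. *Bax* rose by 0.30 ± 0.09 in WT (adjusted p = 0.0172) and by 0.50 ± 0.10 in KO (adjusted p = 0.000688). The WT call was lost without WT 0 h replicate 3 (0.23, adjusted p = 0.0967) or WT 4 h replicate 1 (0.25, adjusted p = 0.0781). *Bak1* was counted at 48.2, 68.6 and 65.6 CPM in WT 0 h and 61.3, 54.5 and 66.2 CPM in KO 0 h, and at 47.6, 40.8 and 37.0 CPM in WT 4 h and 41.0, 36.3 and 37.1 CPM in KO 4 h. The uncultured and cultured groups did not overlap in either genotype, though WT replicate 1 of 0 h came within 1 CPM of the highest WT 4 h library. The log2 change of *Bak1* was -0.55 ± 0.12 in WT (adjusted p = 0.00104) and -0.67 ± 0.12 in KO (adjusted p = 0.000271). The culture changes of both effectors had no called genotype difference, with -0.19 ± 0.14 for *Bax* and 0.12 ± 0.17 for *Bak1*. Exons of *Ggnbp1* on the opposite strand overlap *Bak1*, and an exon of *Gm45808* on the same strand overlaps 192 of the 1576 exonic bases of *Bax*.

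*Bid* encodes the BH3-only protein that caspase-8 cleaves, which links death receptors to the mitochondria. It was the only member called in no comparison. Its level was 41.6, 36.2 and 39.4 CPM in WT 0 h, 40.6, 39.0 and 44.7 CPM in KO 0 h, 40.0, 36.4 and 40.4 CPM in WT 4 h and 33.9, 38.7 and 38.3 CPM in KO 4 h. The WT groups overlapped, with a culture change of -0.00 ± 0.09. In KO every cultured library lay just below every uncultured one, by a log2 change of -0.16 ± 0.09 that was not called (adjusted p = 0.230). The neighbouring family gene *Bcl2l13*, on the opposite strand, overlaps 628 of the 3550 exonic bases of *Bid*.

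**Figure D3:**
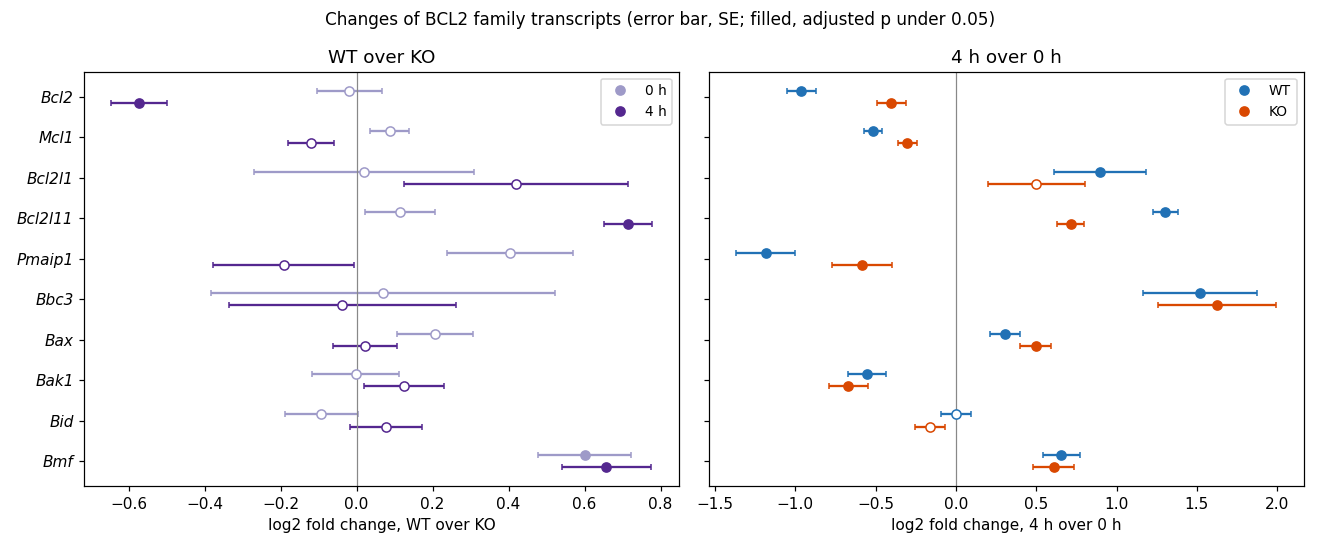
Log2 fold changes of the 10 genes between genotypes (left, WT over KO at 0 h and 4 h) and in culture (right, 4 h over 0 h in WT and KO); points are edgeR estimates, error bars SE, and filled points have adjusted p under 0.05. For *Bcl2* and *Bcl2l11* the culture change is larger in WT, and for *Bmf* the genotype difference is 0.60 at 0 h and 0.66 at 4 h.

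Ratios of the counts of 2 members within a library do not depend on how libraries are scaled, and 6 such ratios were taken. WT 0 h replicates held 4.20, 3.75 and 3.91 *Bcl2* reads per *Bcl2l11* read, and KO 0 h replicates 4.42, 5.09 and 3.67. At 4 h the WT libraries held 0.887, 0.801 and 0.783 and the KO libraries 2.02, 2.08 and 1.91. The groups overlapped at 0 h and stood well apart at 4 h, where the mean ratio was 0.823 ± 0.056 in WT and 2.00 ± 0.087 in KO (SD, n = 3). An exact permutation test of 3 libraries against 3 cannot give a p below 0.1, so these ratios are given as values. *Mcl1* reads per *Bcl2l11* read went from 20.1 ± 2.71 to 5.64 ± 0.247 in WT and from 20.3 ± 1.12 to 10.0 ± 0.360 in KO, again with overlap at 0 h and none at 4 h. *Bcl2* reads per *Bmf* read were apart at both times, with 9.33 ± 1.69 in WT and 14.3 ± 1.40 in KO at 0 h and 3.08 ± 0.713 and 7.12 ± 0.852 at 4 h. *Bcl2* reads per *Bax* read overlapped between the genotypes at 0 h (5.22 ± 1.15 in WT, 6.11 ± 1.10 in KO) and were apart at 4 h (2.14 ± 0.078 and 3.25 ± 0.313). *Mcl1* reads per *Pmaip1* read went the other way, from 60.7 ± 11.7 to 95.4 ± 17.3 in WT and from 72.9 ± 8.13 to 90.3 ± 19.8 in KO, and the genotypes overlapped at both times. *Bax* reads per *Bak1* read went from 0.903 ± 0.187 to 1.59 ± 0.115 in WT and from 0.760 ± 0.023 to 1.72 ± 0.240 in KO, and the genotypes overlapped at both times. These ratios compare transcripts of unequal length, so only their differences between groups carry meaning. They use the same counts as the single-gene results, so their separation at 4 h restates the differences in *Bcl2*, *Bcl2l11* and *Bmf* and is not independent of them.

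**Figure D4:**
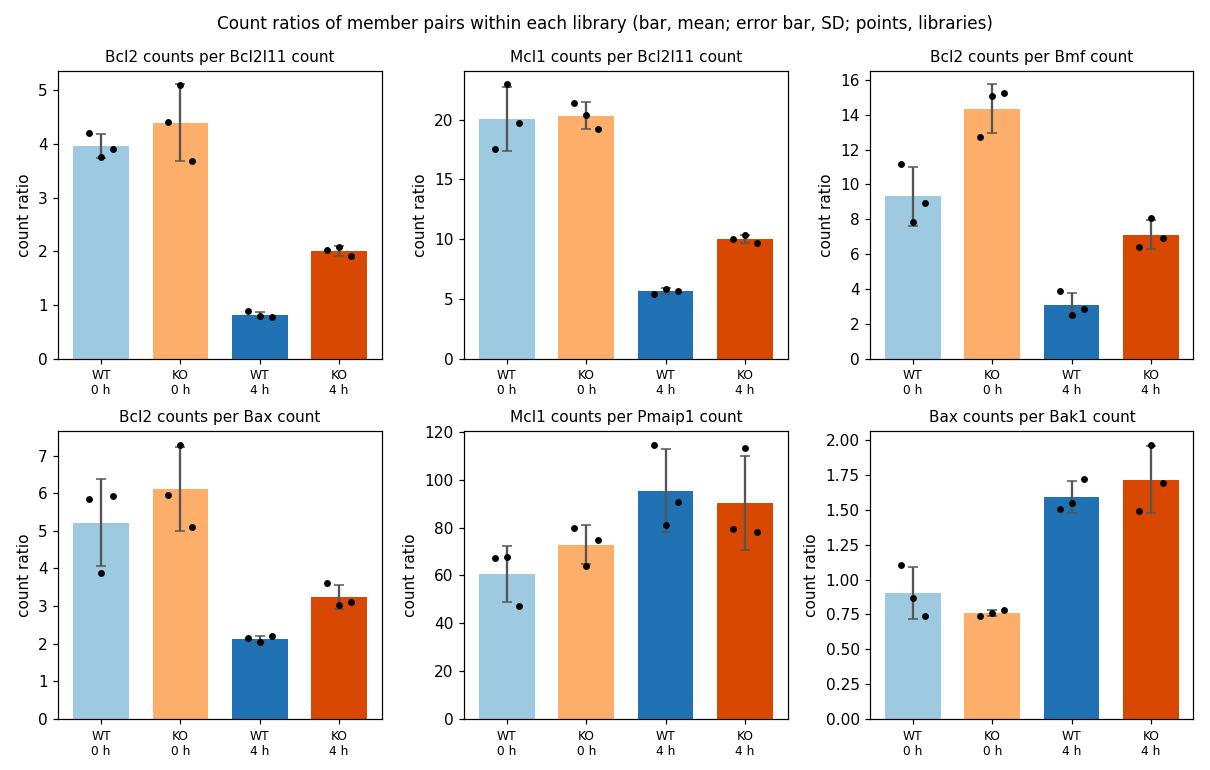
Ratio of the counts of 2 family genes within each library (linear axes that start at 0), for *Bcl2* and *Mcl1* over *Bcl2l11*, *Bcl2* over *Bmf* and *Bax*, *Mcl1* over *Pmaip1* and *Bax* over *Bak1*; bars are means, error bars SD, and points the 3 libraries of a group. The WT 4 h libraries lie below all KO 4 h libraries in the ratios over *Bcl2l11* and in those of *Bcl2* over *Bmf* and *Bax*, but overlap them in *Mcl1* over *Pmaip1* and *Bax* over *Bak1*.

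Genes around the family were read from 8 lists of 101 genes in all, of which 90 were tested at 0 h and in culture and 88 in the 4 h genotype contrast. At 0 h 0 of the 90 genes were called by edgeR and 0 by DESeq2, with 5 at an unadjusted p under 0.05 in edgeR. At 4 h 5 of the 88 were called (5.68%; 3 higher and 2 lower in WT; 4 by DESeq2), and in the interaction 5 of 90 (5.56%), both below the share of all genes. Culture moved 36 of 90 genes in WT (40.0%; 21 up, 15 down; 32 by DESeq2) and 24 in KO (26.7%; 10 up, 14 down; 24 by DESeq2). Over all 11572 genes tested by edgeR it moved 33.1% in WT and 23.3% in KO. The culture counts of single lists below stand beside these same shares and were not tested against them. The median log2 fold change of the listed genes was 0.03 in the 4 h genotype contrast, 0.03 for culture in WT and -0.05 for culture in KO, beside 0.00 over all genes in each. The genotype calls sat in the list for control of BCL2 proteins, in that of the death receptor pathway and in 1 transcription factor. The death receptor list also holds the BAFF receptor gene *Tnfrsf13c*. The other family genes, the caspases with the apoptosome, the inhibitors of apoptosis and the mitochondrial partners had 0 calls by edgeR or DESeq2 in the 4 h genotype contrast and the interaction, with 3 genes at an unadjusted p under 0.05 in edgeR at 4 h and 0 in the interaction.

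Among the other guardians, 3 genes were tested. *Bcl2a1b* and *Bcl2a1d*, near-identical copies whose reads may be split between them, rose in culture in both genotypes. *Bcl2l2*, which encodes BCL-w, had log2 changes of -0.37 ± 0.17 in WT and -0.29 ± 0.17 in KO, neither called (adjusted p = 0.104 and 0.236). Of the 8 other family genes tested, 3 were called in WT (1 by DESeq2) and 1 in KO. Of the 14 genes of the apoptosome and caspases, 3 were called in WT (2 up, 1 down) and 4 in KO (1 up, 3 down). The list of 8 inhibitors of apoptosis had 5 calls in WT (1 up, 4 down) and 3 in KO (1 up, 2 down). The lower genes were *Xiap* (-0.19 ± 0.06), *Naip5*, *Naip6* and *Xaf1* in WT and *Naip5* and *Xaf1* in KO, and *Birc3* was higher in both. Whether *Naip5* and *Naip6* act as inhibitors of apoptosis in these cells was not tested. *Xaf1* is known to antagonise XIAP rather than to inhibit death. Its log2 change was -1.13 ± 0.24 in WT (adjusted p = 0.000809) and -1.36 ± 0.24 in KO (adjusted p = 0.00026). These genes were named after their values were seen. The 7 tested genes of the death receptor list, with *Tnfrsf13c* among them, had 4 calls in WT (1 up, 3 down). In KO they had 3 calls (all down). Among 16 upstream factors and p53 targets 7 were called in WT (5 up, 2 down) and 3 in KO (2 up, 1 down). The 21 genes listed for control of BCL2 proteins had 9 calls in WT (6 up, 3 down) and 6 in KO (3 up, 3 down). The 13 mitochondrial partners had 3 calls in WT (2 up, 1 down) and 2 in KO (both down). DESeq2 called neither of the latter, *Bloc1s2* (adjusted p = 0.0517) and *Vdac3* (adjusted p = 0.0898), named after their values were seen.

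Among the 21 genes listed for control of BCL2 proteins, *Trib1*, *Dynll2* and *Trim17* were called both at 4 h and in the interaction. Whether each listed gene acts on a BCL2 protein in these cells was not tested. *Trib1*, a pseudokinase scaffold for the ubiquitin ligase COP1, went from 13.7 ± 1.48 to 32.8 ± 1.80 CPM in WT and from 14.2 ± 1.42 to 15.2 ± 0.872 CPM in KO (SD, n = 3). Its WT to KO difference at 4 h was 1.11 ± 0.11 (log2; adjusted p = 5.99e-06). *Dynll2*, the dynein light chain that holds BMF, was at 19.3 ± 1.92 and 21.7 ± 2.45 CPM in WT and at 23.0 ± 2.32 and 14.6 ± 0.546 CPM in KO at 0 h and 4 h. It fell in culture in KO (-0.65 ± 0.13, adjusted p = 0.0009) and was higher in WT at 4 h by 0.57 ± 0.13 (adjusted p = 0.00947). *Trim17*, a ubiquitin ligase for MCL1, stood at 7.41 ± 0.708 and 13.7 ± 0.623 CPM in WT and at 11.2 ± 1.64 and 9.35 ± 1.27 CPM in KO, with a WT to KO difference of 0.55 ± 0.16 at 4 h (adjusted p = 0.0366). By DESeq2 that 4 h difference was not called (adjusted p = 0.0963), while the interaction of all 3 genes was. The interaction was 1.16 ± 0.24 for *Trim17* (adjusted p = 0.00362), 0.81 ± 0.18 for *Dynll2* (adjusted p = 0.00724) and 1.15 ± 0.18 for *Trib1* (adjusted p = 0.000228).

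In the death receptor list, *Cflar* and *Tnfrsf13c* were lower in WT at 4 h. *Cflar*, which encodes the caspase-8 inhibitor c-FLIP, differed by -0.23 ± 0.06 (adjusted p = 0.0231), with 104 ± 2.07 CPM in WT and 121 ± 0.789 CPM in KO. *Tnfrsf13c*, the receptor for the B cell survival cytokine BAFF, differed by -0.19 ± 0.06 (adjusted p = 0.045). It fell in culture from 1867 ± 64.4 to 838 ± 32.3 CPM in WT and from 1759 ± 78.7 to 954 ± 29.4 CPM in KO, and its decline was larger in WT (interaction -0.27 ± 0.07, adjusted p = 0.021). Of the transcription factors, *Creb1*, which binds the CRE, was not called between genotypes at 0 h or 4 h but was called in the interaction (-0.32 ± 0.07, adjusted p = 0.0103). It fell in WT from 274 ± 4.74 to 215 ± 4.65 CPM (-0.35 ± 0.05, adjusted p = 2.15e-05). In KO it stood at 243 ± 9.48 and 238 ± 7.39 CPM at 0 h and 4 h. The uncalled WT to KO differences were 0.16 ± 0.05 at 0 h (adjusted p = 0.170) and -0.15 ± 0.06 at 4 h (adjusted p = 0.124). The interaction thus includes a higher WT level at 0 h.

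By root-mean-square difference of centred log2 CPM over the 12 libraries, the genes closest to *Bcl2l11* were *Sfn* (0.111), *Sdhaf1* (0.125) and *Eif2ak3* (0.125). *Eif2ak3*, for example, went from 93.9 ± 2.47 to 215 ± 5.37 CPM in WT and from 91.5 ± 3.99 to 143 ± 5.25 CPM in KO. Closest to *Bcl2* were *St6gal1* (0.108), *Mettl7a1* (0.109) and *Sh3kbp1* (0.111). *Sh3kbp1* went from 411 ± 12.9 to 200 ± 22.0 CPM in WT and from 397 ± 9.25 to 327 ± 11.7 CPM in KO. These distances are descriptions over the same 12 libraries that gave the results of the members.

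Several marker lists and the *Rn45s* share moved with the groups in which the members differed, and their part in the results was not tested. Before culture, where *Bmf* differed, the 8 cycling-cell markers summed to 140 to 228 CPM in WT and 350 to 515 CPM in KO, and 13 of the 14 macrophage and monocyte markers to 101 to 112 and 119 to 125 CPM. The 4 listed follicular B cell markers summed to 2866 to 3070 CPM in WT and 2484 to 2760 CPM in KO at 0 h. At 4 h, where *Bcl2*, *Bcl2l11* and *Bmf* differed, the 6 marginal zone markers summed to 243 to 288 CPM in WT and 381 to 428 CPM in KO. Only 2 of these 6 were called at 4 h, both lower in WT. The sum leans on *Cr2*, with 800 to 12558 reads per library, and *Dtx1*, with 460 to 1170. The 5 listed germinal centre markers then summed to 134 to 159 CPM in WT and 222 to 244 CPM in KO. At 0 h their sums overlapped, at 230 to 286 CPM in WT and 273 to 322 CPM in KO. Of these markers, 3 were called lower in WT at 0 h and 2 at 4 h. The 5 listed plasma cell markers summed to 519 to 571 CPM in WT and 443 to 478 CPM in KO at 4 h. Only 1 of these 5 was called at 4 h, higher in WT. *Irf4* had the most reads of them, 2241 to 3934 per library, ahead of *Xbp1* with 311 to 814. At 4 h the follicular sum was the lower in WT, at 2091 to 2273 CPM against 2388 to 2528 CPM in KO. The single follicular markers were split at 4 h, with 2 called higher and 2 called lower in WT, and 0 were called at 0 h. Among cultured libraries *Rn45s* took 6.65% to 7.59% of the reads in KO and 7.78% to 11.2% in WT, without overlap. Both the marginal zone and the macrophage sums also differed between times: the former lay between 1072 and 1300 CPM in the uncultured libraries, and the latter was 53.6 to 79.0 CPM in WT and 39.3 to 60.5 CPM in KO after culture. *C1qa*, *C1qb*, *C1qc*, *Cd14* and *Mertk* of the macrophage list had no reads in at least 1 library. None of the cycling, marginal zone, germinal centre or plasma cell markers listed was at 0 in any library.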

How the data were processed

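Whole-transcriptome amplification (NuGEN Ovation RNA-seq System V2) and single-end sequencing gave reads that the authors aligned to mm10 with STAR and counted per gene with HTSeq. The strand setting, annotation and versions are not given in the sources used here. The authors deposited raw read counts as whole numbers, in 1 table per time, without normalization. The smallest row sum was 10 reads over 6 libraries in each table, and 0 columns were unmapped.

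Counts were scaled by TMM, filtered with filterByExpr and tested with edgeR 4.0.16 (glmQLFit, glmQLFTest; R 4.3.3), with Benjamini-Hochberg adjustment over all genes tested. Genotype (WT over KO) was fitted on the 6 libraries of each time. Culture (4 h over 0 h) and the interaction (WT minus KO culture change) were fitted on all 12 libraries over the 12837 genes in both tables. The SE is the log2 fold change over the root of F. Each p-value sets a change against the spread between these libraries, which edgeR estimates in part from all genes. Reads carry no molecular identifiers. Replicate pairs differed beyond sampling noise (chi-square per degree of freedom of 2.00 to 9.88), so none was merged. Scripts were tested on simulated data.

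All 10 members are named, and from each list the genes called in the 4 h genotype contrast or the interaction, at most 5 by p; *Bcl2a1b* and *Bcl2a1d* were named after their values were seen, with *Bcl2l2* as the rest of their tested list. Members and lists were chosen with earlier results of these data known. Lengths, positions and overlaps came from GENCODE M21, promoters from RefSeq. DESeq2 1.42.0, other scalings and filters, other sets of libraries, a replicate block and leaving out each library were alternatives. Without strand, reads of overlapping genes cannot be told apart. One marker gene is not reported here.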

Additional observations from a re-analysis of the deposited data

Results flagged for a closer look

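The culture change of *Bcl2* differed between the genotypes by -0.56 on the log2 scale (WT minus KO), by the interaction test over all 12 libraries. The transcript fell in WT and in KO, and the decline was larger in WT.

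The culture change of *Bcl2l11* differed between the genotypes by 0.59 on the log2 scale in the same test. The transcript rose in both, with the larger rise in WT. Both values kept their call in 18 of 18 alternatives, from -0.67 to -0.47 for *Bcl2* and from 0.50 to 0.64 for *Bcl2l11*.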

How the results depend on the processing

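The calls of *Bcl2*, *Bcl2l11* and *Bmf* at 4 h were kept in 13 of 13 alternatives. Leaving out 1 library at a time gave 26 to 161 genes called at 0 h, 0 to 1 members called at 0 h and 776 to 1361 genes called at 4 h. The fewest came without KO 0 h replicate 1 and without KO 4 h replicate 1, and *Bmf* at 0 h was called in 8 of 13 alternatives. Scaling by library totals moved the median log2 culture change of all genes to 0.11 in WT and 0.09 in KO. Calls up and down then went from 1750 and 2080 to 3001 and 1500 in WT, from 1193 and 1504 to 2168 and 1101 in KO, and from 57 and 55 to 37 and 68 for genotype at 0 h. Of the members, that scaling ended the KO call of *Pmaip1* and turned only uncalled values, *Bid* in WT culture to 0.11 and *Bcl2l1* at 0 h to -0.0109. *Bak1* at 0 h turned to 0.00397 without a filter and 0.00467 with all groups in the fit. The cause was not tested.

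Other uncalled values changed sign as 1 library was left out. At 0 h *Bak1* ran from -0.0937 to 0.14, *Bbc3* from -0.0458 to 0.29, *Bcl2* from -0.11 to 0.0932 and *Bcl2l1* from -0.0648 to 0.14. At 4 h *Bax* ran from -0.0429 to 0.0980 and *Bbc3* from -0.35 to 0.16. *Bid* in WT culture ran from -0.0515 to 0.0436, and in the interaction *Bak1* from -0.0203 to 0.21, *Bbc3* from -0.41 to 0.0847 and *Bmf* from -0.0243 to 0.16.

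Deviations from the group means were correlated between same-numbered libraries of 0 h and 4 h. The values were 0.07 to 0.13 in WT and -0.04 to 0.15 in KO. In 5 of 6 pairs the 0 h library correlated best with the same-numbered 4 h library of its genotype. Same-numbered libraries were not treated as paired in the main fits. With the replicate number as a block, 138 genes were called at 0 h and 1062 at 4 h. For culture and the interaction the block was the replicate number within each genotype, which pairs same-numbered 0 h and 4 h libraries. It gave 3980 and 2859 genes in WT and KO culture and 842 in the interaction. Members called under the block numbered 1, 3, 9, 8 and 2, as without it. *Bbc3* and *Bcl2l1*, at 8 to 68 reads per library, are limited by depth.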
